A study of Mus musculus with 12 samples.

Results

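The 37 genes of the mouse mitochondrial genome were followed in hepatic double negative T cells, T cells that lack both CD4 and CD8, cultured with or without arachidonic acid (AA), a polyunsaturated fatty acid. The members were all genes whose symbol begins with mt-, found by matching the Ensembl identifiers of the deposited table to symbols without regard to version, and they made up 37 of 55401 genes. Of these, 13 encode proteins, 2 encode the ribosomal RNAs of the mitochondrial ribosome and 22 encode transfer RNAs, and the 3 classes were treated separately.

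The study concerns such T cells and fatty liver disease not caused by alcohol, and sequenced RNA from live CD45+ CD3+ NK1.1- CD4- CD8- cells sorted from the livers of adult C57BL/6 mice and stained for TCRαβ or TCRγδ. There were 4 groups of 3 libraries: αβ cells with AA (48 h, added after sorting), αβ cells without AA, γδ cells with AA (48 h) and γδ cells without AA. The labels do not say whether the cells without AA were cultured for as long, nor whether the replicates of a group came from separate animals, so the p-values rest on the spread among these libraries alone, and that spread may be technical. Total counts per library were 8988771, 17021782 and 6036487 for αβ with AA, 21616779, 21189619 and 30548253 for αβ without AA, 18301268, 23461265 and 18781074 for γδ with AA, and 19327567, 24145149 and 20983619 for γδ without AA.

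Facts about several libraries bear on the comparisons. The count of Trdc, the constant part of the δ receptor chain, per count of the CD3 genes was 0.354 in the αβ library without AA labelled replicate 3, against 0.0178 and 0.0243 in the other two of its group, and 0.0292 in the γδ library without AA labelled replicate 3, against 0.361 and 0.427 in the other two of its group. Both libraries thus went against their labels, and results that rest on them are also given without both. In replicate 3 of αβ with AA, the satellite repeat genes Gm10800 and Gm21738 took 23.0% of all counts, against at most 1.48% in each of the other 11 libraries. All 7 markers of T cells had counts in every library, but so did all 5 markers of B cells, which summed to 533 to 9498 CPM (a gene's counts scaled to a library of 1e6 counts). The 11 macrophage markers summed to 1779 to 35966 CPM, most of it from Lyz2 alone, at 1672 to 35050 CPM, and 6 to 11 of them had counts per library. None of the libraries thus held RNA of T cells alone.

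Mammalian mitochondria keep a small circular genome that is transcribed from both strands into long precursors. The tRNAs lie between most of the longer genes and are cut out, which frees the mRNAs and rRNAs. The 13 proteins are core subunits of complexes I, III, IV and V of the respiratory chain, and every other protein of the organelle, the ribosomal proteins and RNA polymerase included, is encoded in the nucleus and imported. In T cells this machinery is known to be enlarged during activation. Pieces of mitochondrial DNA have also been copied into nuclear chromosomes, where they sit as pseudogenes.

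Those nuclear copies matter for how each gene can be counted, and the following sequences show how close they are. They are transcripts of the GENCODE M21 annotation (GRCm38), written 5′ to 3′ with positions counted from the first base of each transcript. The first is bases 1 to 150 of mt-Nd3, a subunit of complex I. From its base 4 to its base 345 the gene of 348 bases is the same, base for base, as Gm28438, a pseudogene on chromosome 1, and capitals mark the bases of this window outside that stretch.
mt-Nd3: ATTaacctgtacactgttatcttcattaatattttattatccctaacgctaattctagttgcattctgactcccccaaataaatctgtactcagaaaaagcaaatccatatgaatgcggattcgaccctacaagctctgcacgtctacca

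The second set is bases 447 to 506 of mt-Co2, a subunit of complex IV, with the same bases of Gm28661 on chromosome 1 and the matching bases 435 to 494 of Gm13341 on chromosome 2. Capitals mark the 6 bases at which Gm13341 differs. The copy on chromosome 1 has no difference from mt-Co2 in this window or anywhere in the 681 bases they share.
mt-Co2: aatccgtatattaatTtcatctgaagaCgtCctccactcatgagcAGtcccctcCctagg
Gm28661: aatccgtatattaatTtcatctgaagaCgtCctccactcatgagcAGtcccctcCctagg
Gm13341: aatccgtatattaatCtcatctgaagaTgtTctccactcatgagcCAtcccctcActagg

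The third set is the point in mt-Co1, the catalytic subunit of complex IV, where the copy Gm29216 on chromosome 1 begins, bases 1054 to 1113 of mt-Co1 over bases 1 to 60 of the copy. Capitals mark the 6 bases that differ, all within the first 13 bases of the copy, and no other base differs over its 492 bases.
mt-Co1: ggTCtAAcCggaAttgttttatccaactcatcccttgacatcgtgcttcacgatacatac
Gm29216: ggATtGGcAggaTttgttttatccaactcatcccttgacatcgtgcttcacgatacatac

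Every run of 50 bases of each gene was looked up in all other annotated transcripts. For mt-Co2 100% of these windows were found in a nuclear transcript, for mt-Co3 99.9%, for mt-Atp6 99.5%, for mt-Nd4l 98.8% and for mt-Nd3 98.0%. These 5 genes could hardly be told from their copies by a read of that length. The share was 62.2% for mt-Nd4, 51.1% for mt-Co1, 8.19% for mt-Nd2, 7.61% for mt-Nd5 and 1.04% for mt-Rnr2, and 0% for mt-Rnr1, mt-Nd1, mt-Nd6, mt-Cytb, mt-Atp8 and every tRNA gene. Only annotated transcripts were searched, and how reads with several matches were handled is not given in the sources used here.

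The 5 genes with near-complete copies were also those with few or no counts among the protein genes, with mt-Atp8. Over the 12 libraries mt-Nd3 had 9 counts and its copy Gm28438 had 13. Counts of mt-Nd4l came to 11, against 17 for its copy Gm10222, counts of mt-Co3 to 348, against 297 for Gm28437, and counts of mt-Co2 to 790, against 501 for Gm28661. The gene mt-Atp6 had 5075 counts, against 4788 for Gm10925. Gene and copy thus had counts of like size in all 5 pairs, while mt-Nd4 had 156857 counts, against 786 for Gm28439, which matches only the first 876 of its 1378 bases, and mt-Co1 had 1501698 counts, against 1593 for Gm29216. The part of shared reads in these levels was not tested, and values of the 5 genes are uncertain.

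Levels compared between genes are given as CPM per kilobase of gene. The large rRNA mt-Rnr2 was highest, at 7030 ± 4846 (SD over 12 libraries), followed by mt-Co1 at 4544 ± 1612, mt-Cytb at 2898 ± 709 and mt-Nd1 at 2436 ± 602. The rRNA mt-Rnr2 exceeded mt-Co1 in 11 of 12 libraries, and mt-Co1 exceeded mt-Cytb, and mt-Cytb exceeded mt-Nd1, in all 12. By CPM over whole genes these 4 ranked 5, 7, 16 and 23 among all 55401 genes. Per kilobase of the 50-base windows without a copy, in place of gene length, mt-Co1 stood at 9605 CPM and mt-Rnr2 at 7332. The order of mt-Rnr2 and mt-Co1 thus depends on how shared reads were counted, which is not given.

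A middle group followed. The small rRNA mt-Rnr1 stood at 635 ± 582 CPM per kilobase, mt-Nd4 at 521 ± 130, mt-Nd2 at 514 ± 242, mt-Nd5 at 343 ± 184 and mt-Nd6 at 285 ± 71.3. Their order did not hold in every library: mt-Rnr1 exceeded mt-Nd4 in 5 of 12 libraries, mt-Nd4 exceeded mt-Nd2 in 10, and mt-Nd5 exceeded mt-Nd6 in 8, although mt-Nd2 exceeded mt-Nd5 in all 12. Per kilobase of the 50-base windows without a copy, mt-Nd4 stood at 1429 CPM and mt-Rnr1 at 670. The genes with near-complete copies came last, with mt-Atp6 at 33.8 ± 9.51, mt-Co2 at 5.21 ± 1.40, mt-Co3 at 1.99 ± 0.803, mt-Nd4l at 0.172 ± 0.299 and mt-Nd3 at 0.0992 ± 0.0986 CPM per kilobase.

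**Figure D1:**
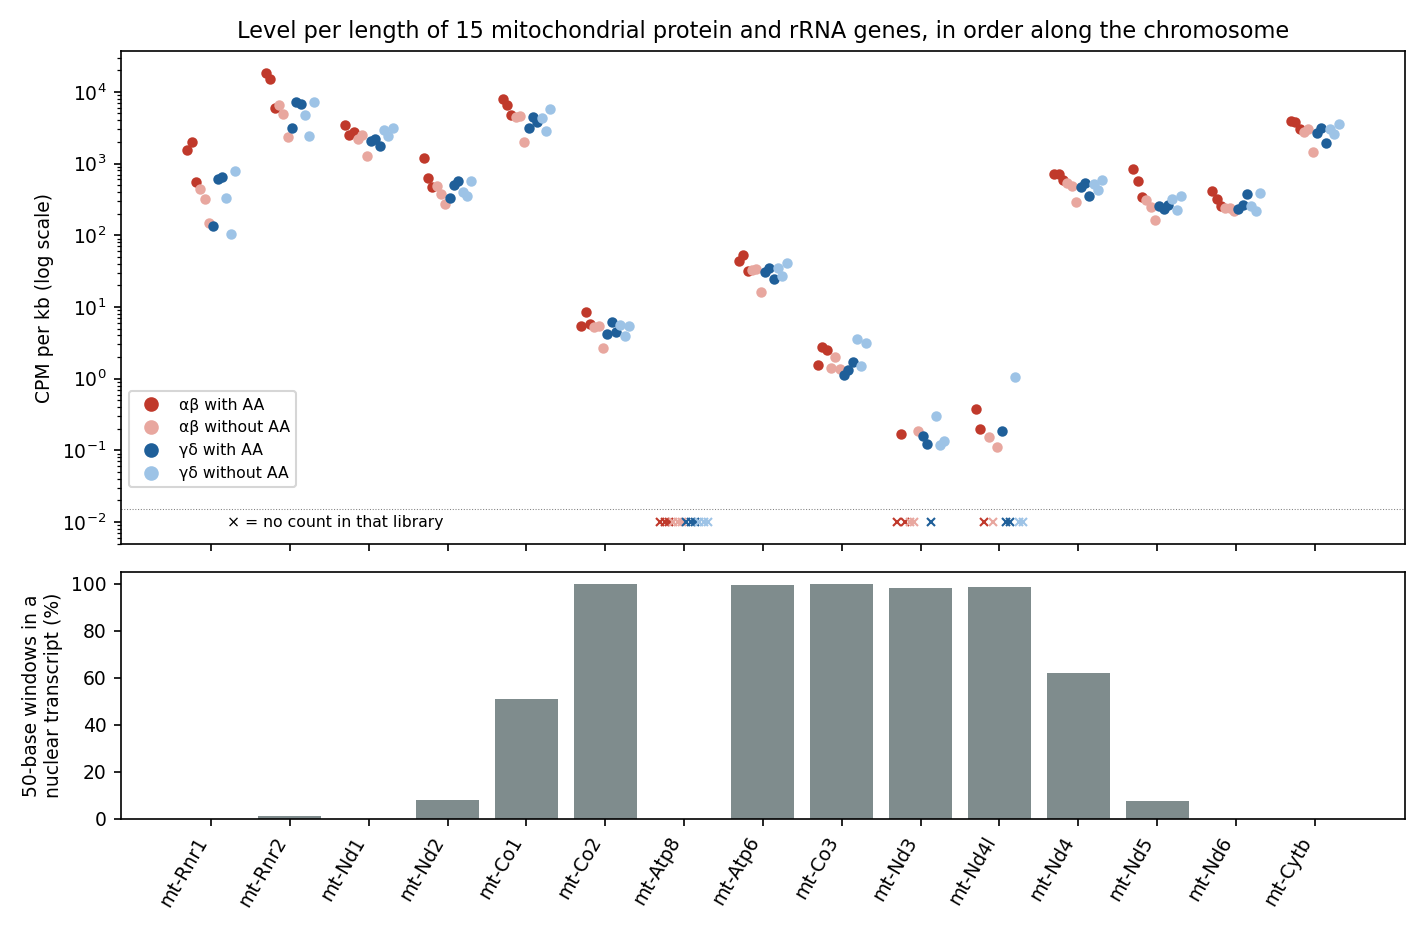
Upper panel, CPM per kilobase of the 15 protein and rRNA genes on a log scale, 1 point per library, genes ordered along the mitochondrial chromosome, crosses for libraries with no count. Lower panel, the percent of 50-base windows of each gene found in an annotated nuclear transcript, which is at 98.0% or more for mt-Co2, mt-Atp6, mt-Co3, mt-Nd3 and mt-Nd4l.

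No count fell on mt-Atp8, a small subunit of complex V, in any library. It has no annotated copy by the search above, and 43 of its 204 bases are shared with mt-Atp6. A count of 0 allows up to 3 counts, which is 0.0982 CPM in the deepest library and 0.497 CPM in the shallowest, counting error only. Most of these genes are read from one strand, and mt-Nd6, the lone protein gene on the other, shares 14 bases with mt-Nd5. Since the use of strand in counting is not given, reads of mt-Nd6 cannot be told from antisense RNA across it.

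The 22 tRNA genes were all but absent from these tables. There were 2 counts of tRNA in 230401633 counts, both on mt-Tp, the proline tRNA, 1 in each of replicates 1 and 2 of γδ without AA, and 21 tRNA genes had none in any library. For those, 0 counts over the 12 libraries allow a level of up to 0.0130 CPM. The genes are 59 to 75 bases long, shorter than most fragments of a cDNA library, and mt-Tp is shown whole as the only one with counts.
mt-Tp: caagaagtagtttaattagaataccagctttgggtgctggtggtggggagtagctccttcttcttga

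With the tRNAs set aside, 12 members had a count in every library and all 12 passed the filter on low counts, 10 protein genes and both rRNAs. The protein genes mt-Atp8, mt-Nd3 and mt-Nd4l and the 22 tRNA genes did not pass.

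Taken as a class, the 13 protein genes took 2.40%, 1.97% and 1.55% of all counts in αβ cells with AA, against 1.40%, 1.46% and 0.708% in αβ cells without AA. Every library with AA was above every library without it, with means of 1.97 ± 0.429% and 1.19 ± 0.418% (SD, n = 3 each). In γδ cells the share was 1.14%, 1.44% and 1.16% with AA, against 1.49%, 1.12% and 1.83% without AA, and the groups overlapped. All 3 γδ libraries with AA, with a mean of 1.25 ± 0.165%, were below all 3 αβ libraries with AA, with a mean of 1.97%. In bulk samples such as these, fewer cells of a type and less RNA per cell cannot be told apart.

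The 2 rRNA genes took 3.03%, 2.56% and 0.996% of counts in αβ cells with AA, against 1.08%, 0.806% and 0.383% in αβ cells without AA. The third library with AA lay just below the first without it, so the groups overlapped by that pair alone. That is the library with 23.0% satellite repeats, and with the repeat genes taken out of the totals the shares were 3.03%, 2.56% and 1.29%, against 1.09%, 0.811% and 0.383%, with no overlap. In γδ cells the rRNA share was 0.504%, 1.19% and 1.12% with AA, against 0.782%, 0.395% and 1.23% without AA, and the groups overlapped widely.

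The balance of the 2 rRNAs does not depend on how libraries are scaled. There were 19.2, 12.5 and 17.8 counts of mt-Rnr2 per count of mt-Rnr1 in αβ cells with AA, against 24.6, 25.3 and 25.7 in αβ cells without AA. The ratio was lower in every library with AA, at 16.5 ± 3.55 against 25.2 ± 0.575 (SD, n = 3 each), and without both libraries labelled replicate 3 without AA the difference of means was -8.41 in place of -8.67. In γδ cells it was 37.9, 19.7 and 17.4 with AA, against 23.7, 39.3 and 15.4 without AA, a spread within each group larger than any difference between them.

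**Figure D2:**
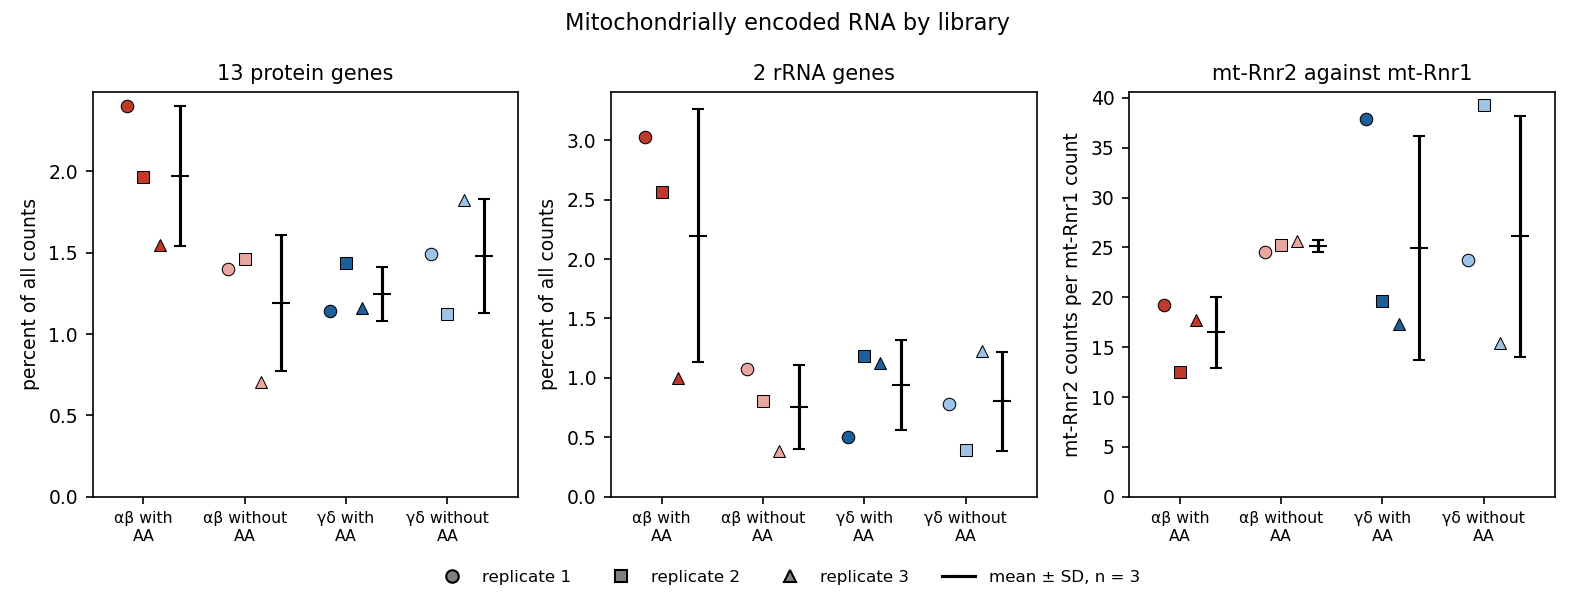
Percent of all counts on the 13 protein genes (left) and the 2 rRNA genes (middle), and mt-Rnr2 counts per mt-Rnr1 count (right), 1 point per library with the mean and SD of each group of 3. Among αβ libraries those with AA are highest in protein share, at 1.55% to 2.40%, and lowest in the ratio of the rRNAs, at 12.5 to 19.2.

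The rRNAs had the largest fitted differences with AA in αβ cells. The level of mt-Rnr1, the 12S RNA of the small mitoribosomal subunit, was 1497, 1900 and 531 CPM in αβ cells with AA, against 422, 307 and 143 CPM in αβ cells without AA. All 3 libraries with AA were higher, and the fitted log2 fold change was 1.96 ± 0.69 (SE), which did not pass the threshold by the quasi-likelihood test of edgeR (Benjamini-Hochberg adjusted p = 0.413, n = 3 each). Without both libraries labelled replicate 3 without AA it was 1.58. In γδ cells the gene stood at 130, 574 and 612 CPM with AA, against 316, 98.2 and 750 CPM without AA, with a log2 fold change of 0.14 ± 0.67.

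The 16S RNA of the large subunit, mt-Rnr2, reached 28804, 23718 and 9428 CPM in αβ cells with AA, against 10347, 7752 and 3683 CPM in αβ cells without AA. Replicate 3 with AA fell between the values without AA, and the log2 fold change was 1.29 ± 0.46 (adjusted p = 0.413 by the quasi-likelihood test of edgeR). In γδ cells mt-Rnr2 stood at 4912, 11277 and 10639 CPM with AA, against 7504, 3852 and 11547 CPM without AA, with full overlap and a log2 fold change of 0.19 ± 0.45. The sign for the rRNAs of γδ cells was not stable when single libraries were left out. Their median was -0.10 without replicate 2 with AA, -0.06 without replicate 3 with AA, where mt-Rnr1 alone turned negative, and -0.30 without replicate 2 without AA, in place of 0.16.

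Of the complex I subunits, which form the proton-pumping arm of that complex, mt-Nd5 had the largest fitted difference with AA in αβ cells. It was at 1519, 1038 and 618 CPM with AA, against 557, 455 and 294 CPM without AA. The groups did not overlap, and the log2 fold change was 1.07 ± 0.30 (adjusted p = 0.330 by the quasi-likelihood test of edgeR; unadjusted p = 0.00295, from the same model across all genes). In γδ cells it was 473, 422 and 488 CPM with AA, against 587, 411 and 645 CPM without AA, a log2 fold change of -0.29 ± 0.29.

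By CPM of all counts, the subunit mt-Nd1 is the gene that separated the groups in both populations, in opposite directions. It was at 3320, 2424 and 2619 CPM in αβ cells with AA, against 2104, 2380 and 1204 CPM in αβ cells without AA. It was at 1996, 2099 and 1680 CPM in γδ cells with AA, against 2825, 2349 and 2977 CPM in γδ cells without AA. Every αβ library with AA was above, and every γδ library with AA below, all libraries of its own population without AA, although in αβ cells the closest values, 2424 and 2380 CPM, nearly touched. With the TMM scaling of the fit the αβ groups overlapped, at 2593 ± 358 CPM with AA and 1988 ± 626 CPM without AA (mean and SD). The log2 fold changes were 0.38 ± 0.25 in αβ (adjusted p = 0.625) and -0.54 ± 0.25 in γδ cells (adjusted p = 0.635), both by the quasi-likelihood test of edgeR. The values were 0.08 in αβ and -0.53 in γδ cells when both libraries labelled replicate 3 without AA were left out. How many of all tested genes separated the groups in both populations in opposite directions was not counted.

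By CPM of all counts, the third αβ library with AA lay below the first without it for the subunit mt-Nd2. This gene stood at 1247, 653 and 494 CPM in αβ cells with AA, against 507, 385 and 286 CPM in αβ cells without AA. Its log2 fold change was 0.81 ± 0.32 in αβ cells (adjusted p = 0.444) and 0.04 ± 0.32 in γδ cells (adjusted p = 1 by the quasi-likelihood test of edgeR), where levels were 344, 520 and 588 CPM with AA, against 416, 369 and 598 CPM without AA. By CPM of all counts, the first library of αβ with AA was the highest of its population, and the others lay on either side of the highest library without AA. With the TMM scaling of the fit the αβ groups did not overlap, at 718 ± 264 CPM with AA and 410 ± 98.2 CPM without AA (mean and SD).

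The subunit mt-Nd4 had 997, 1000 and 803 CPM in αβ cells with AA, against 747, 671 and 400 CPM in αβ cells without AA, with no overlap and a log2 fold change of 0.45 ± 0.26. The αβ value of mt-Nd4 was 0.17 without both libraries labelled replicate 3 without AA. In γδ cells it had 642, 739 and 488 CPM with AA, against 718, 593 and 809 CPM without AA, and the groups overlapped. The light-strand gene mt-Nd6 spanned a 1.94-fold range over all libraries. It had 218, 166 and 133 CPM in αβ cells with AA, against 123, 124 and 113 CPM in αβ cells without AA, which did not overlap, and the log2 fold change was 0.32 ± 0.30. In γδ cells it had 122, 139 and 196 CPM with AA, against 131, 112 and 199 CPM without AA.

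Relative to the other protein genes, mt-Nd6 went its own way in 2 libraries. Per 1000 counts of the other protein genes it had 17.2 counts in replicate 3 of γδ with AA and 16.2 in replicate 3 of αβ without AA, against 8.50 to 11.0 in the other 10 libraries. The protein genes took 1.16% and 0.708% of all counts in these 2 libraries, and whether sense or antisense RNA was counted there was not tested.

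Complex III has a single mitochondrially encoded subunit, cytochrome b. Its gene mt-Cytb had 4476, 4322 and 3462 CPM in αβ cells with AA, against 3104, 3505 and 1674 CPM in αβ cells without AA. The ranges met at 3462 and 3505 CPM, and the log2 fold change was 0.39 ± 0.26 (adjusted p = 0.637 by the quasi-likelihood test of edgeR). It was 0.07 when both libraries labelled replicate 3 without AA were left out. In γδ cells it had 3045, 3552 and 2212 CPM with AA, against 3427, 2940 and 4071 CPM without AA, a log2 fold change of -0.29 ± 0.26 with overlap.

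Of complex IV, mt-Co1 alone carried 39.5% to 51.1% of all protein gene counts per library. It had 12229, 10015 and 7312 CPM in αβ cells with AA, against 6847, 7061 and 3098 CPM in αβ cells without AA, with no overlap. Its log2 fold change was 0.61 ± 0.31 (adjusted p = 0.518 by the quasi-likelihood test of edgeR). It was 0.25 (log2) when both libraries labelled replicate 3 without AA were left out. In γδ cells it had 4761, 6866 and 5934 CPM with AA, against 6768, 4439 and 8922 CPM without AA, a log2 fold change of -0.24 ± 0.31.

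The 2 other subunits of complex IV, mt-Co2 and mt-Co3, and mt-Atp6 of complex V are the tested genes with near-complete copies. Levels of mt-Co2 were 3.67 to 5.76 CPM in αβ cells with AA, against 1.80 to 3.68 CPM in αβ cells without AA, and those of mt-Co3 were 1.22 to 2.17 CPM, against 1.08 to 1.56 CPM. Levels of mt-Atp6 were 21.9 to 36.2 CPM in αβ cells with AA, against 10.9 to 23.3 CPM in αβ cells without AA. All 3 overlapped, and their log2 fold changes of 0.40 ± 1.18, 0.38 ± 1.47 and 0.46 ± 0.52 in αβ cells were smaller than their errors. When both libraries labelled replicate 3 without AA were left out, the values were 0.09 for mt-Co2, 0.24 for mt-Co3 and 0.13 for mt-Atp6.

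**Figure D3:**
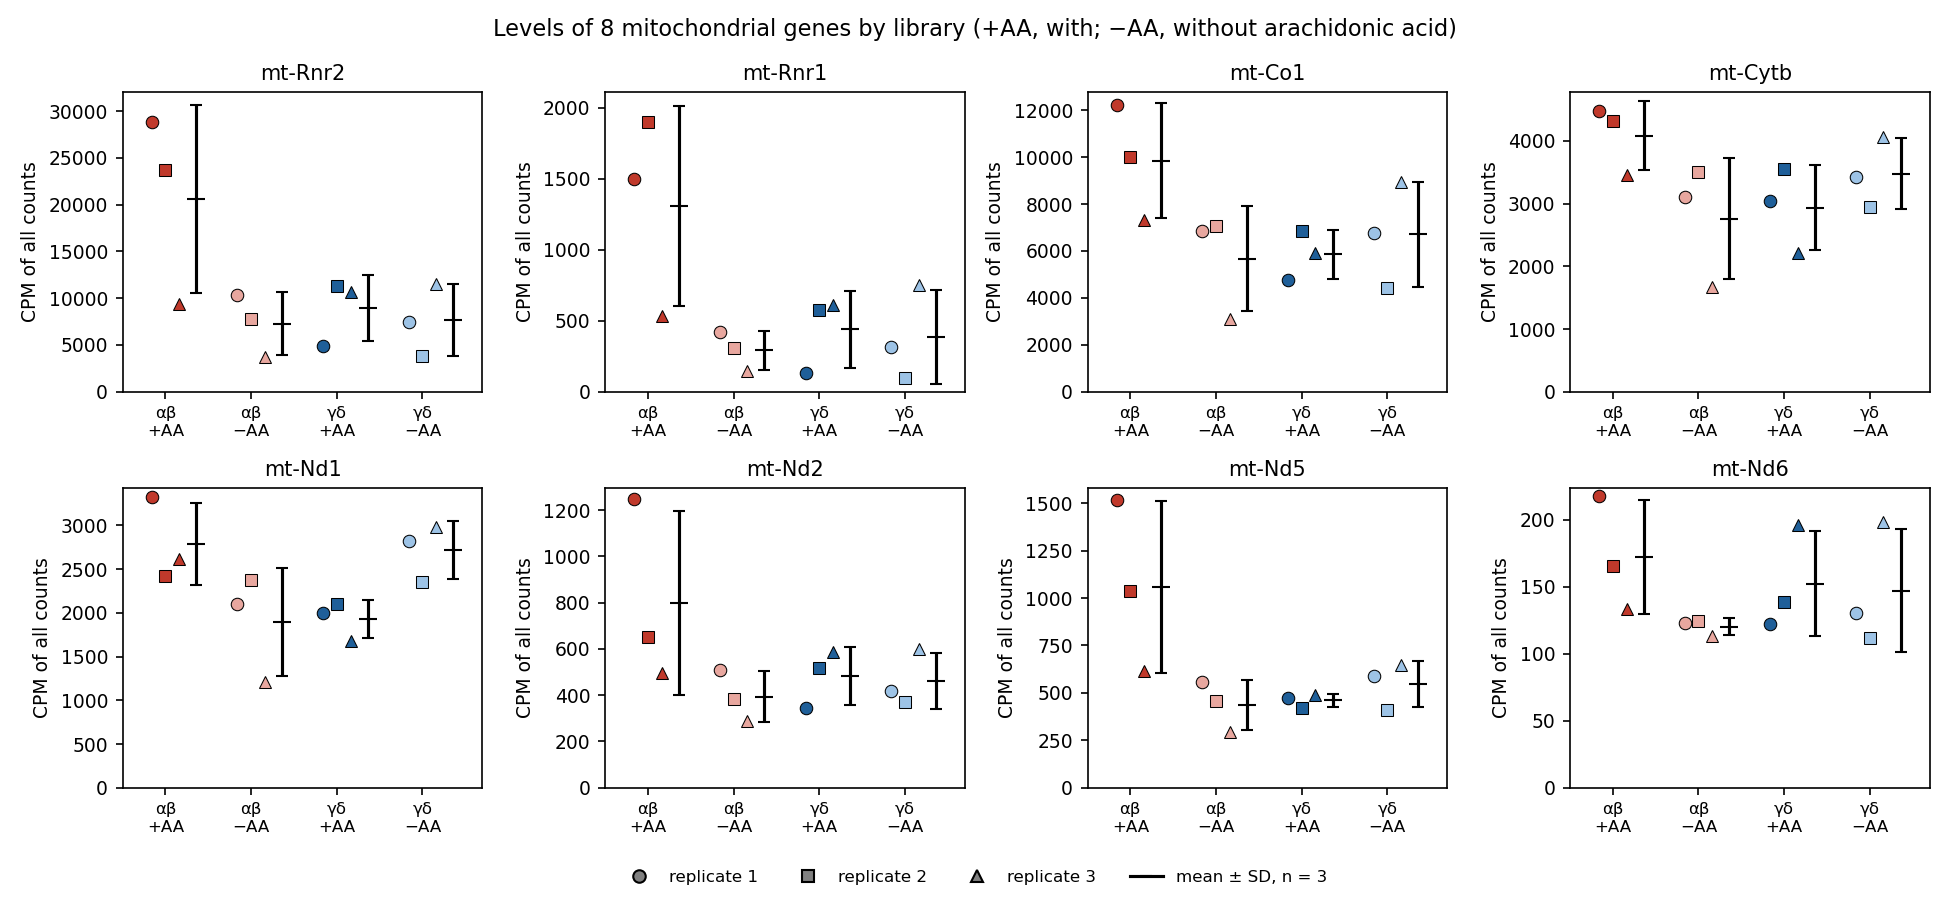
CPM of all counts for 8 of the tested genes, 1 point per library with the mean and SD of each group of 3; each axis starts at 0. In αβ cells with AA, replicate 1 is the highest library for mt-Nd2 at 1247 CPM and mt-Nd5 at 1519 CPM, and replicate 3 of αβ without AA is the lowest for mt-Co1 at 3098 CPM.

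Counted over the members, 0 of 12 passed the threshold in αβ cells with against without AA by the quasi-likelihood test of edgeR, where 0.0136% of all 22107 tested genes were called. At an unadjusted p under 0.05 there were 2 of 10 protein genes, mt-Nd5 and mt-Nd2, and both rRNAs, against 10.2% of all tested genes. DESeq2's Wald test called 2 of the 12, mt-Nd5 (adjusted p = 0.00505) and mt-Rnr1 (adjusted p = 0.0480), where it called 1.66% of all genes. By CPM of all counts, groups stood apart, higher with AA, for 5 of 10 protein genes (mt-Nd1, mt-Nd4, mt-Nd5, mt-Nd6 and mt-Co1) and for 1 of 2 rRNAs, against 9.42% of all tested genes. No member stood apart in the lower direction, as 7.97% of all genes did. The CPM totals include the satellite repeats, which lowers all other values of replicate 3 of αβ with AA. Groups that stood apart were not counted anew without the repeats. With no filter on low counts edgeR called 2 members, both rRNAs, and 0.597% of 44233 genes.

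All 10 tested protein genes had a positive fitted log2 fold change with AA in αβ cells, with a median of 0.43, beside 0.12 over all tested genes, of which 53.2% were positive. The rRNA median was 1.62. The αβ library without AA labelled replicate 3 was the lowest of all 12 libraries for 9 of the 12 members. Without it the protein median was 0.31, below that of all genes at 0.41, and without both libraries labelled replicate 3 without AA it was 0.19, again below all genes at 0.27. The rRNA medians without them were 1.36 and 1.24. The filter kept 26626 and 26018 genes in these fits, in place of 22107, so part of the shift lay in the median of all genes. That median also rose to 0.43, over 26881 genes, without replicate 3 of γδ with AA, which is not in this comparison. Without replicate 2 of αβ without AA the protein median was 0.68, beside 0.39 over all genes.

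Other RNA also differed between the αβ libraries. The 7 T cell markers, all with counts, summed to 981 to 1130 CPM in αβ cells with AA, against 1682 to 2163 CPM in αβ cells without AA. The 10 hepatocyte markers summed to 4.80 to 22.1 CPM with AA, with counts on 4, 7 and 4 of them per library, against 2.10 to 4.44 CPM without AA, with counts on 6, 5 and 3. Apoc3 was at 0 in both groups and Fabp1 in the group without AA. In replicate 1 with AA, the highest, Alb had 14.1 and Cyp2e1 7.79 CPM. Of the 4 hepatocyte markers tested, 2 were fitted higher and 2 lower with AA. The 11 macrophage markers overlapped between the groups, at 6319 to 15909 CPM with AA, against 1779 to 23599 CPM without AA, where Clec4f was at 0. The nuclear RNA Malat1 was at 280, 285 and 315 CPM with AA, against 129, 134 and 125 CPM without AA. The part of these in the mitochondrial values was not tested.

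In γδ cells with against without AA, 0 of 12 members passed edgeR's test, where 0.00905% of all genes were called, 1 had an unadjusted p under 0.05, as 7.24% of all genes did, and DESeq2 called 0, where it called 1.26% of all genes. Of the 10 protein genes 8 had a negative log2 fold change, with a median of -0.24 beside -0.06 over all genes, and 2, mt-Nd2 and mt-Nd6, were slightly positive. Both rRNAs were positive, with a median of 0.16. The groups stood apart for 1 of 10 protein genes, mt-Nd1, lower with AA, against 6.45% of all genes, and for none in the higher direction, against 5.19%. With no filter edgeR called 0 members and 0.33% of all genes. Without both libraries labelled replicate 3 without AA, the medians were -0.16 for the protein genes and 0.74 for the rRNAs, beside 0 over all genes.

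Markers of other cells also differed between the γδ groups. The 9 neutrophil markers, with counts on 7 to 9 of them per library, summed to 1768 to 3977 CPM in γδ cells with AA, against 344 to 1724 CPM in γδ cells without AA. The 6 dendritic cell markers summed to 977 to 1700 CPM with AA, with Clec9a at 0, against 215 to 541 CPM without AA. Most of that was from Ccl22 alone, at 871 to 1578 CPM with AA, against 196 to 524 CPM without AA. The 11 macrophage markers overlapped, at 8502 to 22428 CPM with AA, with C1qc and Vsig4 at 0, against 3807 to 35966 CPM without AA, and all 9 tested had a negative fold change. The part of these in the mitochondrial values was not tested.

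**Figure D4:**
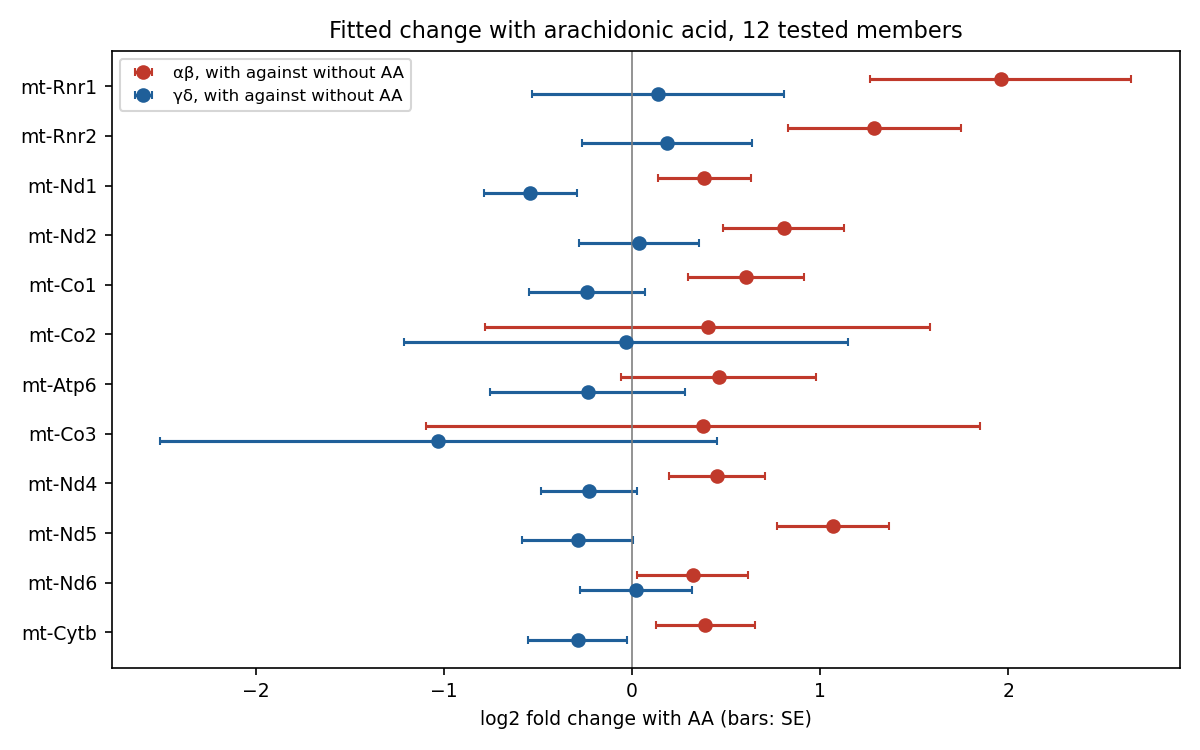
Fitted log2 fold change with AA against without AA and its SE for the 12 tested members, αβ cells in red above γδ cells in blue, genes in chromosome order. All 12 points of αβ cells lie above 0, with mt-Rnr1 highest at 1.96, while mt-Nd1 at -0.54 and mt-Co3 at -1.03 are the lowest of γδ cells.

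The difference between the AA effects, γδ minus αβ, was fitted directly. It was negative for all 12 members, with a median of -0.73 for the protein genes and -1.46 for the rRNAs, beside -0.08 over all genes. None passed edgeR's test, which called 0% of all genes (9.58% had an unadjusted p under 0.05, 2 of the 12 members among them, and DESeq2 called 1.44% of all genes, among them 1 member). The sizes were largest for mt-Rnr1 at -1.82 ± 0.95, mt-Co3 at -1.41 ± 2.08 and mt-Nd5 at -1.36 ± 0.42 (adjusted p = 0.442 for mt-Nd5 by edgeR), and the difference for mt-Nd1 was -0.92 ± 0.35 (adjusted p = 0.468). These were -0.63 for mt-Rnr1, -1.24 for mt-Co3, -1.0 for mt-Nd5 and -0.61 for mt-Nd1 without both libraries labelled replicate 3 without AA. The member called by DESeq2 was mt-Nd5 (adjusted p = 0.0463). With no filter on low counts edgeR called both rRNAs and 0.491% of all genes. Without both libraries labelled replicate 3 without AA, the medians were -0.32 for the protein genes and -0.49 for the rRNAs, beside -0.14 over all genes.

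Between the populations, the comparison without AA gave log2 fold changes, γδ over αβ, of 0.14 to 0.75 for the protein genes and 0.07 and 0.41 for the rRNAs. No member had groups that stood apart, while 3.94% of all genes were higher and 4.15% lower in every γδ library. Of the members, 0 passed edgeR's test, which called 0% of all genes (3.3% had an unadjusted p under 0.05, none of them a member), and 0 passed DESeq2's, which called 0.357%. With no filter edgeR called 0 members and 0.0271% of all genes. This comparison turned on the libraries that went against their labels: without both, the median of the protein genes was -0.12 in place of 0.28 and that of the rRNAs -0.75 in place of 0.24, beside -0.21 over all genes.

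With AA, all 10 protein genes and both rRNAs were fitted lower in γδ than in αβ cells, with medians of -0.45 and -1.22, beside -0.19 over all genes. The groups stood apart, lower in γδ, for 4 of 10 protein genes (mt-Nd1, mt-Nd4, mt-Nd5 and mt-Co1), against 11.9% of all genes, and for none in the higher direction, against 7.36%. Here too the CPM totals include the satellite repeats, which lowers other values of replicate 3 of αβ with AA. The gene mt-Nd5 had 473, 422 and 488 CPM in γδ cells with AA, against 1519, 1038 and 618 CPM in αβ cells with AA, a log2 fold change of -1.03 ± 0.30 (adjusted p = 0.203 by the quasi-likelihood test of edgeR). No member passed that test, where 0.0226% of all genes were called and 2 members, mt-Nd5 and mt-Rnr2, had an unadjusted p under 0.05, as 18.5% of all genes did. DESeq2 called mt-Nd5 (adjusted p = 0.00388) and no other member, where it called 8.25% of all genes. With no filter edgeR called both rRNAs and mt-Co1, and 1.52% of all genes. These comparisons use the same αβ libraries with AA as the effect of AA in αβ cells, so they are no separate evidence. Here too marker lists differed with the groups. Neutrophil markers summed to 1768 to 3977 CPM in γδ cells with AA, against 468 to 1599 CPM in αβ cells with AA, and dendritic cell markers to 977 to 1700 CPM, against 355 to 576 CPM. Most of the dendritic sum was from Ccl22, at 871 to 1578 CPM, against 336 to 516 CPM. All 7 T cell markers were fitted higher in γδ cells, with a median log2 fold change of 1.72, although their sums overlapped. The 5 B cell markers, all with counts, summed to 533 to 1827 CPM in γδ cells with AA, against 2334 to 9498 CPM in αβ cells with AA. All 6 markers of mast cells and basophils were fitted lower in γδ cells, with a median of -3.17. So were all 7 tested markers of endothelial and stellate cells, with a median of -2.25. The part of these lists in the mitochondrial values was not tested.

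The nuclear genes that serve the mitochondrial genome were read next. The lists were chosen by function. Of 71 nuclear subunits of complexes I, III, IV and V, all tested, 0 were called by edgeR's test or by DESeq2's in either population. In αβ cells 61 of 71 were negative with AA, with a median of -0.63 and 11 at an unadjusted p under 0.05, and in γδ cells 66 of 71 were negative, with a median of -0.55 and 3 at an unadjusted p under 0.05. Over all genes the share at that threshold was 10.2% in αβ and 7.24% in γδ cells, and with no filter edgeR called 1 nuclear subunit in αβ and 0 in γδ cells. So in αβ cells the mitochondrially encoded subunits, at a median of 0.43, and their nuclear partners lay on opposite sides of the median of all genes, 0.12, and in γδ cells both lay below it. That contrast about the median of all genes was lost without both libraries labelled replicate 3 without AA, where the mitochondrially encoded subunits stood at 0.19 and the nuclear ones at -0.42, with 54 of 71 negative, both below all genes at 0.27. It was also lost with no filter on low counts, where they stood at 0.34 and -0.74, beside 0.44 over all genes. Those medians of all genes are over 26018 and 44233 genes, in place of 22107. The mitochondrially encoded subunits stayed above the nuclear ones in both settings.

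The subunits with the smallest p in αβ cells were Atp5b, the catalytic β subunit of the ATP synthase, at -1.0 ± 0.22 (adjusted p = 0.216 by edgeR), and Uqcrc1, a core protein of complex III, at -0.89 ± 0.23 (adjusted p = 0.270). Further members were Uqcrc2 of complex III at -0.89 ± 0.37, Atp5g2 of the ATP synthase at -0.83 ± 0.29, Cox4i1 of complex IV at -0.82 ± 0.45, and Ndufv1 and Ndufa9 of complex I at -0.77 ± 0.31 and -0.67 ± 0.28. Cox5a of complex IV was positive, at 1.45 ± 0.79. In γδ cells the ones named by p were Ndufs4 at -0.98 ± 0.39 and Ndufb5 at -0.66 ± 0.32 of complex I, Uqcrc2 at -0.63 ± 0.37 and Uqcrb at -0.74 ± 0.52 of complex III, Ndufa4 at -1.26 ± 0.72 and Cox4i1 at -0.72 ± 0.45 of complex IV, and Atp5f1 at -0.63 ± 0.27 and Atp5g2 at -0.67 ± 0.28 of the ATP synthase. All values are log2 fold changes with SE, and none passed edgeR's test with Benjamini-Hochberg adjustment.

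Proteins of the mitochondrial ribosome, which translates the 13 mRNAs around the 2 rRNAs, went the same way as the nuclear subunits. Of 78 tested, 64 were negative with AA in αβ cells, with a median of -0.60, and 74 in γδ cells, with a median of -0.43. None was called by edgeR's test, 14 in αβ and 3 in γδ cells had an unadjusted p under 0.05, against 10.2% and 7.24% of all genes, and DESeq2 called 2 and 1, against 1.66% and 1.26% of all genes. With no filter edgeR called 2 in αβ and 0 in γδ cells. The large-subunit proteins Mrpl36 and Mrpl12 had log2 fold changes of -1.88 ± 0.37 (adjusted p = 0.157 by the quasi-likelihood test of edgeR) and -1.39 ± 0.33 in αβ cells, and the small-subunit proteins Mrps28 and Dap3 had -1.75 ± 0.60 and -1.21 ± 0.48. In γδ cells Mrpl12 was at -0.88 ± 0.32, Mrpl48 at -1.21 ± 0.41, Mrps14 at -0.72 ± 0.37 and Mrps35 at -1.05 ± 0.55. In αβ cells the rRNAs and the ribosomal proteins thus lay on opposite sides of the median of all genes.

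Genes for the transcription and replication of mitochondrial DNA had 12 of 18 negative in αβ cells, with a median of -0.22, and 16 of 18 negative in γδ cells, with a median of -0.54. With DESeq2's size factors the αβ median was 0.12, beside 0.51 over all genes, so its sign depends on the scaling. Tfam, which packages mitochondrial DNA and starts its transcription, was at -0.57 ± 0.32 in αβ cells, and Polg2, a subunit of the mitochondrial DNA polymerase, was at -0.66 ± 0.56 in αβ and 1.44 ± 0.56 in γδ cells. Primpol, a primase-polymerase, was at -1.21 ± 0.61 in γδ cells. By edgeR's test 0 of 18 were called in either population, against 0.0136% of all genes in αβ and 0.00905% in γδ cells. At an unadjusted p under 0.05 there were 0 and 1, against 10.2% and 7.24% of all genes. DESeq2 called 0 in both, against 1.66% and 1.26% of all genes.

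Genes that cut, modify and degrade mitochondrial RNA had 27 of 32 negative in αβ cells, with a median of -0.55, and 21 of 32 in γδ cells, with a median of -0.17. With DESeq2's size factors 19 were negative and 13 positive in αβ cells, with a median of -0.13, beside 0.51 over all genes. Hsd17b10, a part of the RNase P that cuts tRNAs out of the precursor, was at -0.97 ± 0.31 in αβ cells, and Rexo2, an exonuclease that clears short RNAs, at -0.81 ± 0.34. In γδ cells Pnpt1, the polynucleotide phosphorylase, was at -0.98 ± 0.40 and Nsun4, which acts on the small mitochondrial rRNA, at 1.04 ± 0.48. By edgeR's test 0 were called, against 0.0136% of all genes in αβ and 0.00905% in γδ cells. At an unadjusted p under 0.05 there were 2 in αβ and 3 in γδ cells, against 10.2% and 7.24% of all genes.

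Of 27 translation factors and tRNA synthetases of mitochondria, 21 were negative in αβ cells, with a median of -0.50, and 17 in γδ cells, with a median of -0.15. With DESeq2's size factors 14 were negative and 13 positive in αβ cells, with a median of -0.09, beside 0.51 over all genes. Tufm, the mitochondrial elongation factor Tu, was at -0.85 ± 0.39 in αβ cells, and Tars2, the threonyl-tRNA synthetase, was at -0.55 ± 0.31 in both populations, while Gfm2, a ribosome-recycling factor, was at -0.66 ± 0.44 in γδ cells. Of 13 regulators of mitochondrial biogenesis, 10 were negative in αβ cells, with a median of -0.58, and 6 in γδ cells, with a median of 0.29. With DESeq2's size factors 7 were negative and 6 positive in αβ cells, with a median of -0.16. The filter at 5 CPM left 10 of them, with a γδ median of -0.25, so that sign depends on the filter. Myc, a transcription factor of growth, was at -1.34 ± 0.33 in αβ (adjusted p = 0.269) and -1.13 ± 0.33 in γδ cells (adjusted p = 0.635), by the quasi-likelihood test of edgeR. Prkaa1, a catalytic subunit of AMP kinase, was at -1.03 ± 0.48 in αβ cells and Ppargc1a, a coactivator of biogenesis, at 2.68 ± 1.51 in γδ cells. None of these 40 was called by edgeR's or DESeq2's test in either population. Of all genes edgeR called 0.0136% in αβ and 0.00905% in γδ cells, and DESeq2 1.66% and 1.26%. At an unadjusted p under 0.05 by edgeR there were 2 in αβ and 1 in γδ cells, against 10.2% and 7.24% of all genes. With no filter on low counts edgeR called 1 of the translation genes and 1 of the regulators in αβ cells, and none in γδ cells.

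**Figure D5:**
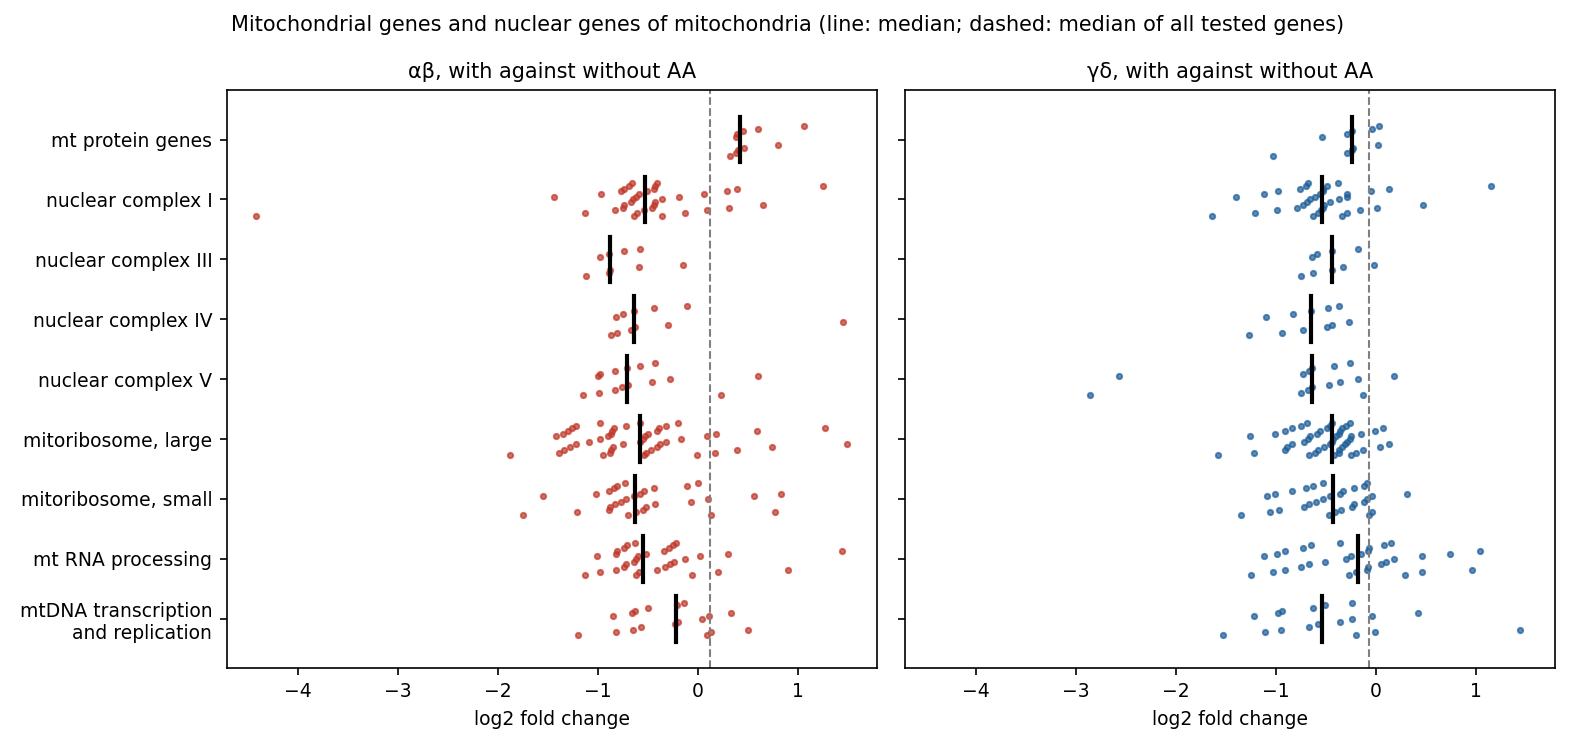
Fitted log2 fold change with AA against without AA, 1 point per gene, for the 10 tested mitochondrial protein genes and for 8 lists of nuclear genes of mitochondria, αβ cells left and γδ cells right; black lines are list medians and the dashed line is the median of all tested genes. In αβ cells the mitochondrial protein genes lie right of the dashed line, at a median of 0.43, and the medians of the nuclear lists lie left of it, while without both libraries labelled replicate 3 without AA the mitochondrial median of 0.19 is also below that of all genes, 0.27. The latter is over 26018 genes in place of 22107.

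The 10 annotated nuclear copies were read the same way. Of these, 6 passed the filter on low counts, and 0 were called by edgeR's test in either population, against 0.0136% of all genes in αβ and 0.00905% in γδ cells. At an unadjusted p under 0.05 there were 0, against 10.2% and 7.24% of all genes. Gm28439, the copy of mt-Nd4, was at 0.76 ± 1.17 in αβ cells, and Gm29216, the copy of mt-Co1, at 0.72 ± 0.88. In γδ cells Gm28661, the copy of mt-Co2, was at -1.20 ± 1.37 and Gm13340, a copy of mt-Co1 on chromosome 2, at -0.53 ± 1.53. Their errors were as large as these values or near them.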

How the data were processed

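The authors deposited 1 table of raw read counts per gene for 12 libraries, 4 groups of 3, made from 1 µg of total RNA with an Illumina TruSeq kit, per the labels' protocols. The submitters' processing notes name Bowtie 0.12.2 and mm8. What counted the reads, with which annotation and strand setting, and what became of reads with several matches is not given in the sources used here. Among the identifiers, 98.1% match GENCODE M21 with their version, which is built on a newer assembly, and genome positions are left out for that reason. Symbols matched 55141 of 55401 identifiers. The members and lists were chosen with earlier results of these data known.

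Libraries were grouped by their labels. Genes were kept by filterByExpr (minimum count 10), which left 22107, scaled by TMM and tested by quasi-likelihood F tests (edgeR 4.0.16, glmQLFit with glmQLFTest; R 4.3.3), all 12 libraries in 1 model with a mean per group (8 residual degrees of freedom). P-values were adjusted by Benjamini and Hochberg over all tested genes, with calls under 0.05. The fit put the biological coefficient of variation shared by all genes at 1.21. The steps were tested on simulated data. CPM values use all counts of a library, and CPM per kilobase uses GENCODE M21 lengths. Sequences and copies came from GENCODE M21 transcripts, aligned with Biopython 1.88. No p was given for shares, ratios or lists. All protein and rRNA members were named, and of each nuclear list the called genes or, failing those, the 2 with the smallest p in each AA comparison. No library was a repeat of another: between replicates, chi-square over its degrees of freedom was 45.9 to 228.

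Alternatives were DESeq2 1.42.0 (size factors, Wald test), library size alone, scaling by nuclear genes, a filter at 5 CPM (3 libraries or more), no filter at all, a replicate block, only the groups compared, satellite repeats left out, thinning to 6036487 counts, each library left out, and both libraries without AA labelled replicate 3 left out. The filter was applied anew in each, so the genes tested, and with them the medians over all genes, differ among some of these.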

Additional observations from a re-analysis of the deposited data

Results flagged for a closer look

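The fitted effect of AA on mt-Nd1 differed in direction between the populations. That direction was not particular to it: all 10 tested protein genes were fitted higher with AA in αβ cells, and 8 of 10 lower in γδ cells. By CPM of all counts of mt-Nd1, every αβ library with AA was above every αβ library without AA. Every γδ library with AA was below every γδ library without AA. The share of all tested genes that separated in this way was not counted. With the TMM scaling of the fit the αβ groups of mt-Nd1 overlapped. The difference of the log2 fold changes, γδ minus αβ, was -0.92 ± 0.35 (adjusted p = 0.468 by the quasi-likelihood test of edgeR), so the difference itself did not pass the test. Across the alternatives it ranged over -1.26 to -0.61, with -0.61 when both libraries labelled replicate 3 without AA were left out.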

How the results depend on the processing

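Members called stayed at 0 of 12 in each comparison under 21 or more of 23 alternatives. The exceptions were no filter on low counts, with 2 for AA in αβ cells, 2 for the difference of AA effects and 3 for γδ against αβ with AA, and DESeq2's Wald test, with 2, 1 and 1; the cause was not tested. Whether the replicate numbers pair the libraries was left undecided. The deviations of same-numbered libraries correlated at -0.288 to 0.15, with 2 of 18 pairs over 0.1, and those of other libraries at -0.151 to 0.229, with 4 of 36. Low correlations cannot show that libraries were unpaired. With the number as a replicate block 0 members were called in each comparison. Fitted signs of all 12 members held for AA in αβ cells under every alternative that kept the gene. For AA in γδ cells, mt-Co2, at -0.03, turned to 0.0416 with DESeq2's size factors, 0.0442 with its Wald test, 0.0159 by library size, 0.0161 by nuclear scaling, 0.0231 with only the groups compared, 0.0110 without repeats and 0.219 thinned, and to -0.265 to 0.124 with single libraries left out. Leaving out single libraries gave -0.19 to 0.27 for mt-Nd2, -0.39 to 0.95 for mt-Rnr1, -0.23 to 0.23 for mt-Nd6 and -0.21 to 0.54 for mt-Rnr2 in γδ cells, and -0.347 to 0.0840 for mt-Nd6 in γδ against αβ with AA, where no filter gave 0.0527. Without both libraries labelled replicate 3 without AA, the difference of AA effects for mt-Nd6 was 0.0117, and the protein share, γδ minus αβ without AA, was -0.124 percentage points in place of 0.290. The median of all genes with AA in αβ cells shifted with scaling, at 0.12 by TMM and 0.51 by DESeq2's size factors. Relative to it the protein genes stood at 0.31 under both, but at -0.076 without both libraries labelled replicate 3 without AA, where the median is over 26018 genes in place of 22107. The tRNA genes, mt-Atp8, mt-Nd3 and mt-Nd4l had too few counts to be compared.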
